A study of Mus musculus with 2 samples.

Results

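The genes described are 9 components of the Nodal and Activin pathway, taken by gene symbol from the deposited mouse expression table: Nodal, Lefty1, Lefty2, Tdgf1, Smad7, Skil, Foxh1, Acvr1b and Acvr2b. Each symbol matched 1 of the 24532 rows. The study compared E14, an established line of mouse embryonic stem cells (ESCs), with E14-Sox2 TA/WT, an E14 derivative, called the clone below, in which 1 allele of Sox2 carries T258A, so that alanine replaces a threonine that can bear the sugar O-GlcNAc. The edit was made with CRISPR/Cas9, and the cells descend from a single sorted cell. Per the study's methods, E14 was cultured in serum with leukemia inhibitory factor (LIF), and the clone was selected and kept with the additional inhibitors PD0325901 (of Mek) and CHIR99021 (of Gsk3), which were withdrawn before the cells were used. Effects of genotype, of the clone and of its culture history cannot be told apart. Polyadenylated RNA was sequenced from 1 library per genotype, and the table counts 60263536 reads for E14 and 44609228 for the clone. No replicate stands behind any difference below, and no p-value was computed.

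Nodal and Activin are secreted ligands of the transforming growth factor β family. They bring together type I and type II receptor kinases, Nodal with the help of the co-receptor Tdgf1 (Cripto), and the receptors phosphorylate Smad2 and Smad3, which enter the nucleus with Smad4 and bind DNA with partners such as Foxh1. The pathway switches on its own inhibitors, among them the Lefty proteins, Smad7 and Skil, and in pluripotent cells it is known for sustaining the epiblast and, at higher activity, for inducing mesoderm and endoderm.

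The ligand, its co-receptor and the type I receptor had lower transcript levels in E14-Sox2 TA/WT than in E14, whereas both Lefty antagonists, both intracellular inhibitors and the type II receptor had higher ones. Levels are given as TPM, the share of transcripts scaled to a fixed total, which accounts for transcript length. Lefty1 and Skil were more than 2-fold higher, at 2.30-fold and 2.20-fold, and none of the 9 genes was more than 2-fold lower. Of the 9094 genes that reached 10 TPM in either library, 4.17% were more than 2-fold higher and 4.07% more than 2-fold lower, and all 9 pathway genes passed that filter. Thus 22.2% of the pathway genes were past 2-fold upward, on a count of 2. The median log2 TPM ratio (E14-Sox2 TA/WT over E14) was 0.31 for the 9 genes and 0.08 for all genes past the filter. Of all genes past 2-fold, 50.6% were higher with TPM, 35.9% with the deposited FPKM and 41.3% after centring the ratios on the median gene. With FPKM the median gene shifted to -0.06, and Skil then stood just under the threshold at 0.99.

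Lefty1 and Lefty2 are neighboring paralogs, and their sequences show how far reads of one could be counted for the other. Their coding sequences were each 1104 bases long and identical at 1014 positions (91.8%), the longest identical run spanning 140 bases. Of all 50-base words in annotated transcripts of Lefty1, 17.9% also occurred in Lefty2, and 12.0% of the Lefty2 words occurred in Lefty1. With words of 100 bases the shares were 5.85% and 3.86%. Reads that fall wholly inside such words cannot be assigned by sequence, and how multi-mapped reads were handled is not given in the sources used here.

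Sox2, the edited gene, had 28936 reads in E14 and 14270 in the clone, or 373 and 274 TPM (log2 ratio -0.44). Gene-level values do not show which allele was transcribed, so the edit itself was not checked. Defining markers of pluripotent cells were present in both libraries. Pou5f1 (Oct4) was at 1725 and 1759 TPM, and the 8 pluripotency markers together summed to 10788 TPM in E14 and 7876 in the clone. Most of that sum was Dppa5a (6877 and 4429 TPM). Of the 8, 3 were higher and 5 lower in the clone, with Nanog past 2-fold lower.

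**Figure D1:**
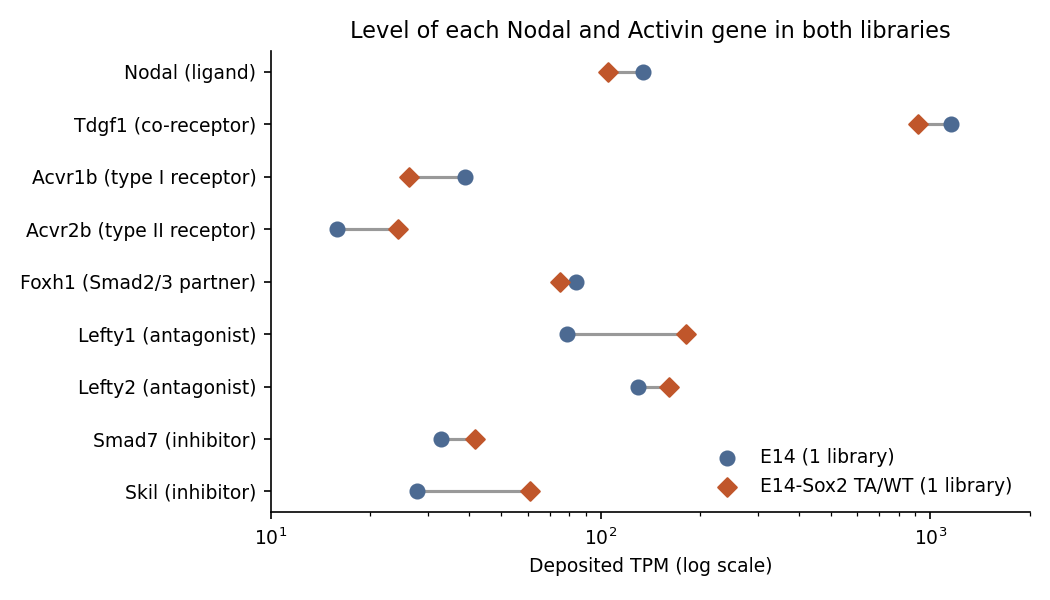
Deposited TPM (log axis) of each gene in the E14 library (circles) and the E14-Sox2 TA/WT library (diamonds), joined by a line. Tdgf1 lies far above the others in both libraries, and the longest lines belong to Lefty1 (79.2 to 182 TPM) and Skil (27.8 to 61.1 TPM).

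Nodal, the ligand, lies on chromosome 10 (61417972 to 61425338, GRCm38, as all positions here). It had 8835 reads and 134 TPM in E14 and 4640 reads and 105 TPM in the clone. The log2 ratio was -0.35, with a 95% interval of -0.40 to -0.30 that covers the counting of reads alone. Nodal thus stood 1.28-fold higher in E14, and its ratio was the 1683rd from the lowest among the genes past the filter. Every scaling tried kept it lower, between -0.50 and -0.13.

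Tdgf1, the membrane-anchored co-receptor that Nodal needs to signal, lies on chromosome 9 (110939608 to 110946158). It was the most abundant of the 9 transcripts, with 70163 reads and 1156 TPM in E14 and 37182 reads and 914 TPM in the clone, which placed it 118th and 125th among the genes past the filter. Its log2 ratio was -0.34 (-0.36 to -0.32). In annotated Tdgf1 transcripts, 8.86% of 50-base words and 3.17% of 100-base words also occurred in the pseudogene Tdgf1-ps1, so the assignment of some of its reads is uncertain.

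The TPM ratios of Nodal and Tdgf1 were alike. Tdgf1 stood at 8.63 times the TPM of Nodal in E14 and 8.71 times in the clone, a log2 change of 0.01 (-0.04 to 0.07). Such a ratio within a library does not depend on how libraries are scaled against each other, but it does not cancel a trend on GC content or length. With that trend removed, Nodal stood at -0.13 and Tdgf1 at -0.35, and their changes were no longer equal. The pairs compared in this way were chosen with their values known. Because their TPM ratios were alike, the 250 bases upstream of their start sites are shown from RefSeq (GRCm38.p6), with CpG dinucleotides in capitals. The windows are chr10:61417722-61417971 (plus strand) for Nodal and chr9:110946159-110946408 (minus strand) for Tdgf1.
Nodal: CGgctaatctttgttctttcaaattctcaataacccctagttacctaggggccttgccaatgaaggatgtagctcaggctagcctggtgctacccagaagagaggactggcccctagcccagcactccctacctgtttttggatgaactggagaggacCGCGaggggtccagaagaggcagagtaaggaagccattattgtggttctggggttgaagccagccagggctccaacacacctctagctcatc
Tdgf1: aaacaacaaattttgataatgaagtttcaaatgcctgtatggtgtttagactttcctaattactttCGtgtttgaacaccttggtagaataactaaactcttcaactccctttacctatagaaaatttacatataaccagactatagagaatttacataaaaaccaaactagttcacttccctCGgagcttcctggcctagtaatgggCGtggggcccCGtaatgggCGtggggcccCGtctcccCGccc
These windows held 3 and 7 CpG dinucleotides, against a median of 6 over 32851 mouse promoter windows of the same length, and their GC content was 53.2% and 42.0%. The window of Acvr1b held 42. The window listed for Acvr2b held 24 and lies inside the span of the gene given below. Both strands of these 4 windows were searched for exact matches to single motif strings. These were a Foxh1 motif (AATCCACA), a palindromic Smad motif (GTCTAGAC), a Sox motif (CATTGTT) and an octamer motif (ATTTGCAT). None of these exact strings was found. They occurred in 0.718%, 0.167%, 3.29% and 1.60% of all windows, respectively, so their absence from 4 windows says little. Variants of the motifs were not searched, so whether the windows hold other binding sequences was not tested.

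The receptor genes differed in opposite directions. Acvr1b (Alk4), the type I receptor kinase for Activin and Nodal, lies on chromosome 15 (101174072 to 101213684) and had 3997 reads and 38.7 TPM in E14 against 1812 reads and 26.2 TPM in the clone. It had the lowest ratio of the 9 genes, at -0.56 (-0.64 to -0.48), and was 1.48-fold higher in E14. Acvr2b, a type II receptor kinase on chromosome 9 (119401583 to 119442148), had 5308 reads and 15.9 TPM in E14 and 5429 reads and 24.3 TPM in the clone. Its log2 ratio was 0.61 (0.56 to 0.67), or 1.53-fold higher in the clone. In E14, Acvr1b transcripts outnumbered those of Acvr2b 2.44 to 1, and in the clone the proportion was 1.08 to 1. The log2 change of that proportion was -1.18 (-1.27 to -1.08), larger than the change of either gene alone.

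Foxh1, the forkhead factor that recruits Smad2 and Smad3 to DNA, lies on chromosome 15 (76667829 to 76671614). It had 3618 reads and 84.1 TPM in E14 and 2176 reads and 75.5 TPM in the clone, a log2 ratio of -0.16 (-0.23 to -0.08). This difference was the smallest of the 9, and its direction depended on the scaling. It was -0.01 relative to the median gene of chromosome 15 and turned to 0.16 once a trend on transcript GC content and length was removed. Foxh1 overlaps Kifc2 by 368 bases on the opposite strand. Kifc2 had 527 reads in E14 and 362 in the clone, and without a statement on strand the reads of the overlap cannot be told apart.

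Lefty1 and Lefty2 encode secreted antagonists that bind Nodal and its receptor complex. Lefty1, on chromosome 1 (180935022 to 180938401), had 4045 reads and 79.2 TPM in E14 and 6224 reads and 182 TPM in the clone. Its log2 ratio of 1.20 (1.14 to 1.26) was the highest of the 9 and ranked 240th of the 9094 genes past the filter. Lefty2 (180893108 to 180899107) had 10136 reads and 130 TPM in E14 and 8413 reads and 161 TPM in the clone, a log2 ratio of 0.31 (0.27 to 0.35). Lefty2 was the more abundant paralog in E14, with 0.610 Lefty1 transcripts for each Lefty2 transcript, and Lefty1 was the more abundant in the clone, at 1.13 for each. Since shared reads can move between the paralogs, both were also added up. The sum went from 209 to 343 TPM, 1.64-fold higher in the clone (log2 0.71), which is under the 2-fold threshold. Relative to Nodal, the summed antagonists stood at 1.56 in E14 and 3.27 in the clone, a 2.09-fold change (log2 1.06, 1.0 to 1.13).

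Smad7 and Skil act inside the cell. Smad7, which blocks the type I receptor and marks it for degradation, lies on chromosome 18 and had 4601 reads and 32.9 TPM in E14 and 3906 reads and 41.7 TPM in the clone. Its log2 ratio was 0.34 (0.28 to 0.40). Skil (SnoN), a co-repressor that binds Smad complexes on DNA, lies on chromosome 3 (31095058 to 31122923) and had 6140 reads and 27.8 TPM in E14 and 9021 reads and 61.1 TPM in the clone. Its log2 ratio was 1.13 (1.09 to 1.18), which ranked 281st. Among the annotated transcripts used for GC content and length, that of Skil had the lowest GC content of the 9 genes (41.0%) and was the longest (6717 bases). The deposited FPKM implied a longer Acvr2b, with 5308 reads for 8.17 FPKM in E14, against 6140 reads for 14.3 FPKM for Skil. Genes past the filter of like GC content had a median log2 ratio of 0.31, and with the trend on GC content and length removed Skil stood at 0.65 and was no longer past 2-fold. The part of GC content in the higher Skil level was not tested beyond this. With the same trend removed, Lefty1 stood at 1.44. Skil stood at 0.846 of the Smad7 level in E14 and 1.47 times it in the clone, a log2 change of 0.79 (0.72 to 0.87). With the trend removed, the ratios of both were closer, at 0.65 for Skil and 0.43 for Smad7.

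**Figure D2:**
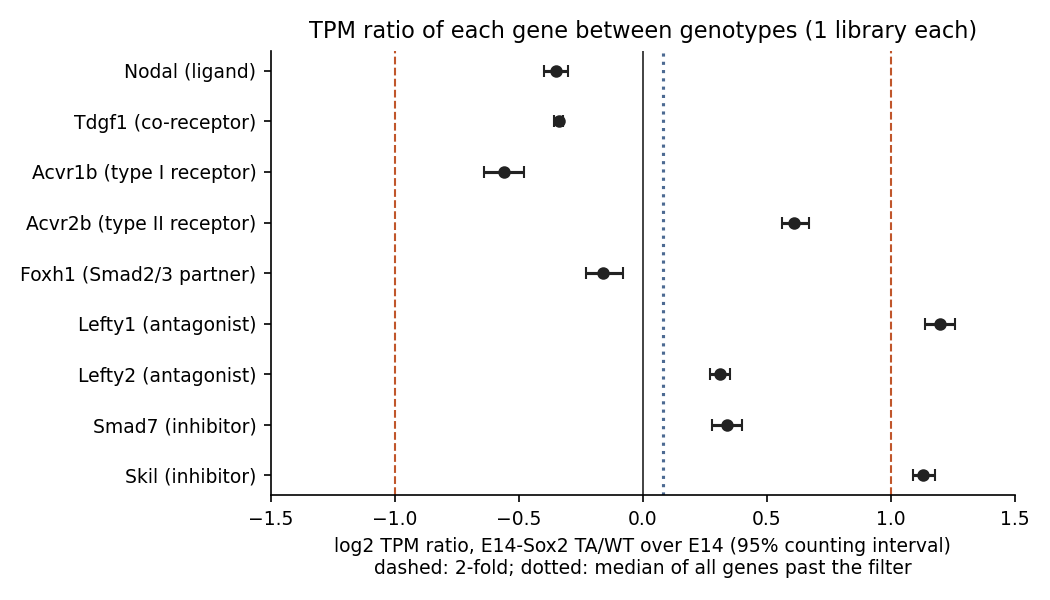
log2 TPM ratio of E14-Sox2 TA/WT over E14 for each gene, with the 95% interval from read counting, 2-fold lines (dashed) and the median of all genes past the filter at 0.08 (dotted). Lefty1 (1.20) and Skil (1.13) lie beyond the upper line, 4 genes lie below 0, and every counting interval excludes 0.

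The order of the transcripts by TPM differed between the libraries. In E14, Tdgf1 was followed by Nodal, Lefty2, Foxh1, Lefty1, Acvr1b, Smad7, Skil and Acvr2b. The counting intervals of Nodal (131 to 137 TPM) and Lefty2 (127 to 132 TPM) overlapped there, as did those of Foxh1 (81.4 to 86.9 TPM) and Lefty1 (76.8 to 81.7 TPM). In E14-Sox2 TA/WT, the order was Tdgf1, Lefty1, Lefty2, Nodal, Foxh1, Skil, Smad7, Acvr1b and Acvr2b, and no neighbors in it overlapped. Lefty1 stood in place 5 in E14 and in place 2, ahead of Nodal, in the clone.

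The wider pathway was described with 8 lists by role, which hold 53 genes besides the 9. Of these, 26 passed the filter, 2 were more than 2-fold higher and 1 more than 2-fold lower, and 20 had higher and 6 lower TPM, which became 15 higher and 11 lower with FPKM. Of all genes past the filter, 57.3% had higher TPM, and with FPKM their median log2 ratio was -0.06. The median log2 TPM ratio of the 26 genes was 0.28, between the 0.31 of the 9 genes and the 0.08 of all genes. With the GC and length trend removed, these medians were 0.18, 0.41 and 0.09. The genes named from these lists are those past 2-fold and the extremes of each list. Other genes named were picked after their values had been seen.

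**Figure D3:**
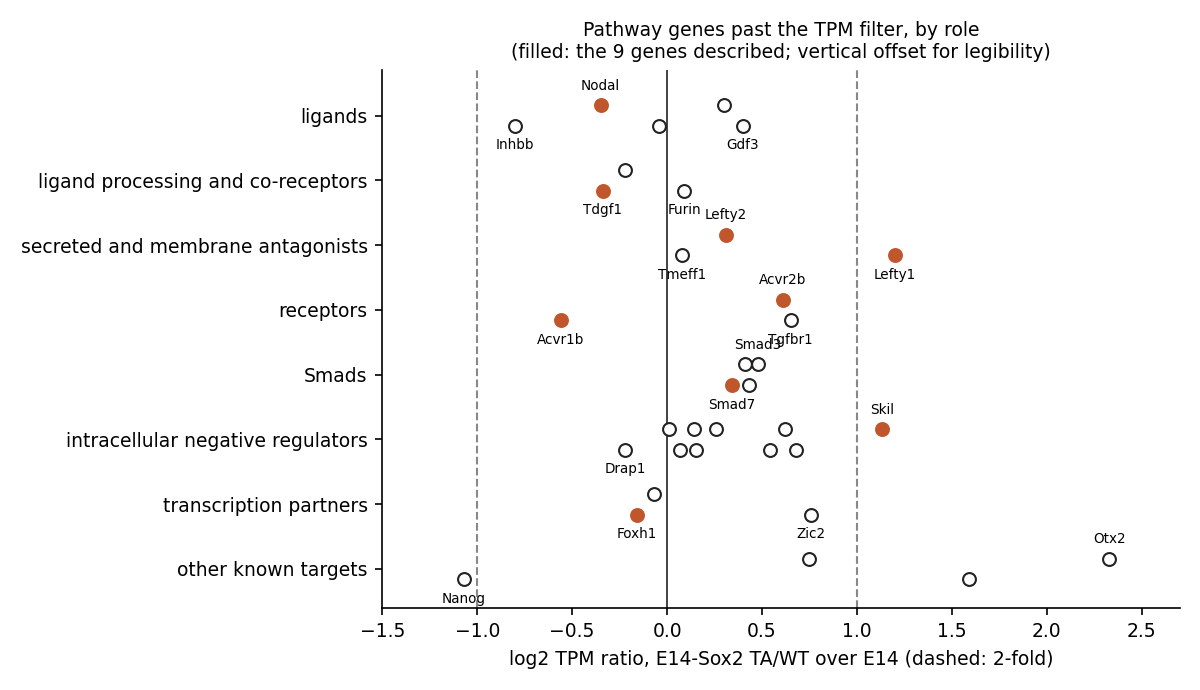
log2 TPM ratio of E14-Sox2 TA/WT over E14 for every pathway gene past the filter, one row per role list, with the 9 genes filled and the extremes of each list named. Inhbb (-0.80) and Nodal (-0.35) lie lowest among the ligands, the 4 Smads lie between 0.34 and 0.48, and 9 of 10 intracellular negative regulators lie above 0.

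Among 12 ligands, 5 passed the filter and none was past 2-fold in either direction. Inhbb, the βB subunit from which Activin B is built, had the lowest ratio, with 5417 reads and 40.4 TPM in E14 and 2085 reads and 23.2 TPM in the clone (log2 -0.80, -0.87 to -0.73). Gdf3, a Nodal-related ligand that also uses Tdgf1, had the highest, at 44.5 and 58.8 TPM (log2 0.40, 0.32 to 0.48). Inhba, the βA subunit of Activin A, was scarce in both libraries, with 5 reads in E14 and 29 in the clone. Tgfb2 was also under the filter but showed 33 and 392 reads, or 0.200 and 3.63 TPM. The most abundant Activin subunit transcript thus went the same way as Nodal. Of the processing and co-receptor genes, Furin, a convertase that cleaves ligand precursors, was at 0.09. Cfc1 (Cryptic), the co-receptor related to Tdgf1, had 6 reads in E14 and none in the clone, and the upper bound of its log2 ratio, 0.20, did not exclude a higher level.

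Of the other antagonists, Tmeff1, a membrane protein that binds Tdgf1, had 114 and 121 TPM (log2 0.08, 0.03 to 0.13). Fst (follistatin), which sequesters Activin, was under the filter with 147 reads in E14 and 308 in the clone (log2 1.66, 1.37 to 1.96). Cer1 had no reads in either library. Among the receptors past the filter, Tgfbr1 (Alk5), the type I receptor for transforming growth factor β, was highest at 0.65 (0.57 to 0.73), from 13.6 to 21.2 TPM, and stood at 0.22 without the trend on GC content and length. The other type II receptor for Activin, Acvr2a, had 934 and 1003 reads, or 5.22 and 8.36 TPM, a log2 ratio of 0.68 (0.55 to 0.81). Acvr1c (Alk7) had no reads in either library. Of the type I receptors for Nodal, Alk4 and Alk7, reads were thus counted for Acvr1b alone, which was also the receptor past the filter with a lower level in the clone.

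The signal transducers Smad2, Smad3 and Smad4 stood close together, with log2 ratios of 0.43, 0.48 and 0.41, although Smad2 stood at -0.05 once the GC and length trend was removed. Smad4 was the most abundant, at 48.4 TPM in E14 and 64.4 in the clone, and Smad3 went from 8.11 to 11.3 TPM. Of 10 intracellular negative regulators past the filter, 9 had higher TPM in the clone, against 57.3% of all genes past the filter. With FPKM, 6 were higher and 4 lower, while the median of all genes past the filter stood at -0.06. With TPM, Skil was the only one past 2-fold. Its relative Ski had 41.0 and 62.9 TPM (log2 0.62) and Trim33, a ubiquitin ligase that acts on Smad4, 20.4 and 32.7 TPM (log2 0.68, or 0.18 with that trend removed). Drap1, a co-repressor that binds Foxh1, was lowest at -0.22 (-0.30 to -0.14) and turned to 0.18 with that trend removed.

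Among the transcription partners past the filter, the highest ratio was that of Zic2, a zinc finger factor, at 8.80 and 14.9 TPM (log2 0.76, 0.62 to 0.89). Of the other known targets, Otx2, a homeobox factor of the early epiblast, had 472 and 1587 reads, 6.66 and 33.5 TPM, a log2 ratio of 2.33 (2.18 to 2.48). Bhlhe40, a basic helix-loop-helix repressor, had 11.7 and 35.3 TPM (log2 1.59, 1.48 to 1.69). Nanog, a pluripotency factor, was the gene past 2-fold lower, with 36683 reads and 527 TPM in E14 and 11728 reads and 251 TPM in the clone (log2 -1.07, -1.10 to -1.04). Eomes, Mixl1, Fgf8, Gsc and Foxa2, which strong signaling induces in mesendoderm, stayed under the filter and did not share a direction. Eomes had 300 and 575 reads, Mixl1 67 and 150, and Fgf8 69 and 222. Gsc had 16 reads in E14 and none in the clone (upper bound of the log2 ratio -1.51), and Foxa2 had 43 and 17.

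Markers of other cell states differed between the same libraries. All 4 formative epiblast markers past the filter were more than 2-fold higher. The 5 markers of that list summed to 83.9 TPM in E14 and 229 in the clone. Most of these sums was Dnmt3b (67.5 and 150 TPM), which had the lowest ratio of the 4 (log2 1.16). Fgf5 was under the filter, with 0.142 and 7.32 TPM. The 6 primitive streak markers summed to 5.61 and 25.1 TPM. Only T (Brachyury) passed the filter, where it was past 2-fold higher, and Gsc was at 0 in the clone. The 8 primitive endoderm markers summed to 57.1 and 23.0 TPM, and 7 of them were lower in the clone. Only Gata4 of these 8 passed the filter. Of all genes past the filter, 57.3% had higher TPM, and no such share was counted for genes under it. The 7 trophoblast markers summed to 65.7 and 43.3 TPM, of which Tfap2c made 50.9 and 16.1. Elf5 was at 0 in both, 4 of the 7 were higher in the clone and 2 lower, and Cdx2 was past 2-fold higher with 0.474 and 12.2 TPM. Of the 7, Tfap2c and Cdx2 alone passed the filter. The 7 fibroblast markers summed to 43.1 and 16.6 TPM. Thy1, alone past the filter, made 40.1 and 11.4 of these, and Postn, Dcn and Lum were at 0 in both libraries. Col3a1 and Col1a2 were higher in the clone, with 15 and 151 reads for Col3a1 and 43 and 109 for Col1a2. Col1a1 had 497 and 370 reads, or 2.66 and 2.95 TPM. The counting interval of its log2 ratio (-0.05 to 0.35) included no change. The part of these shifts in the levels of Nodal, the Lefty genes and the other 7 was not tested. In bulk RNA, a smaller share of cells that express a gene and less RNA of it per cell cannot be told apart.

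Acvr1b and Foxh1 share chromosome 15, whose 396 genes past the filter had a median log2 ratio of -0.14, the lowest of the 20 chromosomes. All 5 genes past the filter within 500 kb of Acvr1b were lower in the clone, between -1.52 and -0.26 with a median of -0.78. The -0.56 of Acvr1b lay inside that range. Around Foxh1, 16 of 34 neighbors were higher and 18 lower, with a median of -0.04. Of the 9 neighbors of Acvr2b, 7 were lower and the highest stood at 0.37, under the 0.61 of Acvr2b. The 12 neighbors of Lefty1 had a median of 0.27 and reached 0.65. The 5 neighbors of Skil ranged from -1.02 to 0.31. Those of Nodal, 10 genes, ranged from -0.98 to 1.04 with a median of 0.12, with 6 higher and 4 lower. Those of Tdgf1, also 10, ranged from -2.45 to 0.99 with a median of -0.14. Of these 10, 4 were higher and 6 lower, 2 of them past 2-fold. The 4 neighbors of Smad7 ranged from -0.30 to 0.02, under its 0.34. The 12 neighbors of Lefty2, Lefty1 among them, had a median of 0.29. The part of chromosome and neighborhood in these values was not tested.

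**Figure D4:**
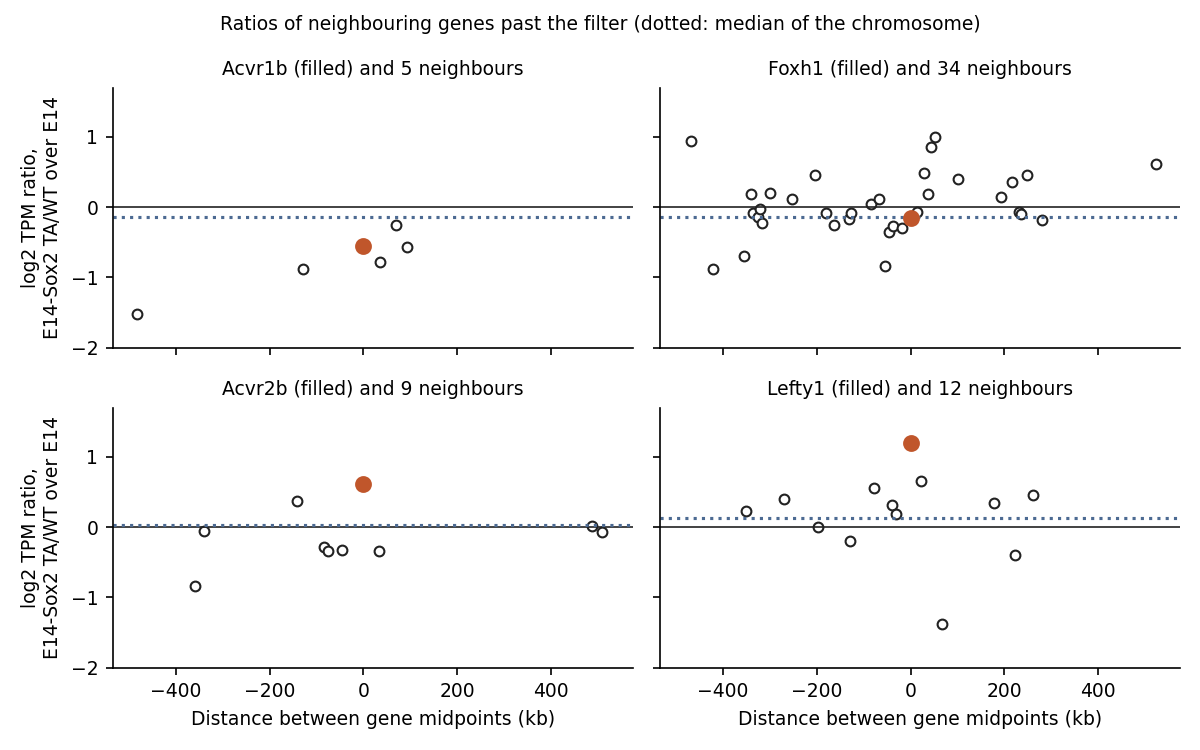
log2 TPM ratio of E14-Sox2 TA/WT over E14 for genes past the filter near Acvr1b, Foxh1, Acvr2b and Lefty1, against the distance between gene midpoints in kb, with the named gene filled and the chromosome median dotted. Acvr1b lies among 5 neighbors that are all below 0, whereas Acvr2b and Lefty1 lie above every neighbor.

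Other scalings of the libraries moved single values, with Acvr1b lowest and Lefty1 highest in each. Acvr2b passed Skil with the GC and length trend removed (0.68 against 0.65). That correction took Acvr2b as 3175 bases long, shorter than its deposited reads and FPKM imply. Its 0.68, and with it this change of order, is therefore uncertain. Acvr1b ranged from -0.71 to -0.42, Acvr2b from 0.47 to 0.68, Lefty1 from 1.06 to 1.44, Lefty2 from 0.17 to 0.41, Smad7 from 0.20 to 0.43 and Tdgf1 from -0.48 to -0.34. Skil ranged from 0.65 to 1.11 and Foxh1 from -0.30 to 0.16, so that Skil crossed the 2-fold line and Foxh1 crossed 0.

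**Figure D5:**
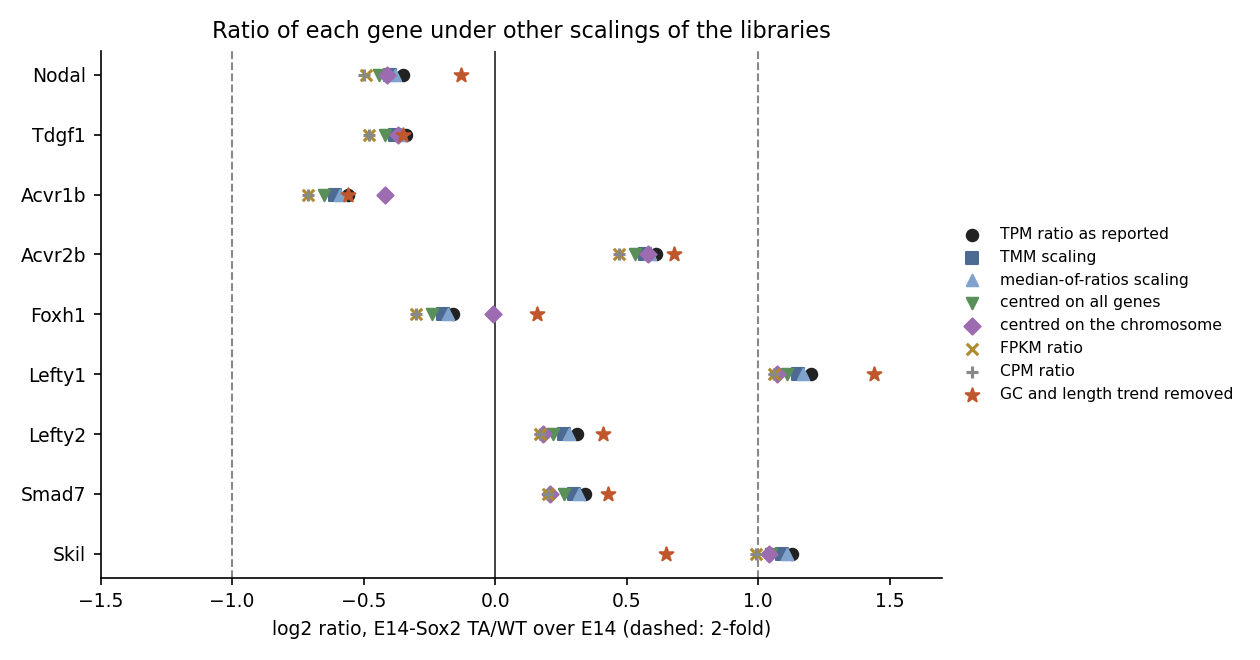
log2 ratio of E14-Sox2 TA/WT over E14 for each gene with the TPM ratio as reported and with 7 other scalings or corrections, each a marker defined in the legend. Lefty1 lies beyond the dashed 2-fold line with each of them, Skil reaches 0.65 with the GC and length trend removed, and Foxh1 is the gene whose markers lie on both sides of 0.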

How the data were processed

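RNA-seq libraries of E14 and E14-Sox2 TA/WT (1 each) were compared. The authors deposited read counts (whole numbers, not normalized), FPKM values and TPM values per gene for the mm10 build, with Entrez IDs. The submitters' processing notes name bcl2fastq 2.20.0, Trimmomatic, HISAT2 2.1.0 and StringTie 2.1.3b, and the builds hg19 and mm10, without their roles. TPM was 1.94 times FPKM in E14 and 2.15 times in E14-Sox2 TA/WT for all 9 genes, so FPKM and TPM differ by a factor per library.

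Following the study's methods, genes that reached 10 TPM in either library were kept and differences over 2-fold were counted, from TPM ratios with nothing added. This gave 379 genes higher and 370 lower, which are not the counts that the study reported. The source of that difference was not tested. The 95% intervals were exact Clopper-Pearson from the reads, exact Poisson for levels and normal-approximation for ratios within a library. They reflect the counting of reads only. PCR copies are not independent molecules, so the intervals can be too narrow even for counting. The lowest count of any of the 9 genes was 1812 reads. Alternatives were other filters, thresholds and a pseudocount of 1, scaling by library total, by TMM (edgeR 4.0.16) or by size factors (DESeq2 1.42.0), centring, removal of a GC and length trend (20 bins each, 99.3% of genes with a sequence), and summing of the Lefty genes. The interval and a ratio of read counts were tested on counts simulated from a Poisson model. That model holds no PCR copies, differences between cultures, GC or length trends or multi-mapped reads. The test therefore checks the calculation under its own assumptions only, and it did not cover the TPM ratios. Positions are RefSeq GRCm38, transcripts GENCODE M21, and promoter windows RefSeq, which gave 4 of the 9 genes. The 9 genes, the role lists and the marker lists were chosen with earlier results of these data known. Named in full are the 9 genes, with list genes past 2-fold, list extremes, Sox2 and sequence-sharing or overlapping genes added by rule. Python 3.11.15 was used. Some items, including 1 gene of the role lists, are not reported here.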

Additional observations from a re-analysis of the deposited data

How the results depend on the processing

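The number of genes more than 2-fold higher went from 2 to 1 with the FPKM ratio, with scaling by library total, with the GC and length trend removed (in these Skil dropped out) and with the Lefty genes summed (in which Lefty1 dropped out). It was 3 at a threshold of 1.5-fold, where Acvr2b was added. None of the 9 was past 2-fold lower under any alternative. The median log2 ratio of the 9 genes went from 0.31 to 0.17 with FPKM and with library totals, 0.26 with TMM, 0.22 centred on all genes, 0.18 centred on the chromosome and 0.41 with the trend removed. Foxh1 reversed to 0.16 with the trend removed, and the cause was not tested. Of 74 values of single genes under alternatives, 27 stayed within their counting interval, 46 moved beyond it in the same direction, and the Foxh1 value reversed. Alternatives for the other pathway genes were added after seeing the data and left 2 of them past 2-fold higher and 1 lower in each case. No paired analysis was possible because each genotype had 1 library, and for the same reason no library could be left out. Summing Tdgf1 with a pseudogene was not run. Variation between cultures was not measured.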
